A study of Homo sapiens with 20 samples.

Results

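The RNA of 7 transcriptional regulators grouped as plasma cell identity factors, IRF4, PRDM1, XBP1, POU2AF1, IKZF1, IKZF3 and MEF2C, was followed in MM1.S cells as CBP and p300 were degraded. These factors are 7 of the 19617 genes in the data, and each was read from the GENCODE transcript with most reads over all libraries. MM1.S, a single established multiple myeloma cell line labelled wild type, received 10 nM dCBP-30, a bifunctional degrader that brings CBP and p300 to cereblon, or the vehicle DMSO. Both treatments ran for 2, 6 and 24 h with 3 libraries each, so that every time point had DMSO libraries of its own. All 18 of these libraries came from cells given 4-thiouridine (4sU) for the last 1 h, which is read as C in place of T after alkylation. Reads that carry such a conversion (T>C reads) stand for RNA synthesized within that hour, total reads count all RNA, and the labelled share is the percentage of a gene's reads that are T>C reads. Another 2 libraries without 4sU gave the background. Nothing in the labels says that replicates were separate cultures, so p-values measure the spread between these libraries, which may be technical.

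CBP and p300 are histone acetyltransferases that work as coactivators at enhancers and promoters, and genes that specify a cell's identity are often near large groups of such enhancers. A plasma cell is a B cell that has turned to antibody secretion. IRF4 starts and maintains that program, PRDM1 (BLIMP-1) represses the B cell program, and XBP1, made active by ERN1 in the unfolded protein response, drives the secretory apparatus. POU2AF1 (OCA-B, BOB.1) is a coactivator that binds DNA together with octamer factors. IKZF1 (Ikaros) and IKZF3 (Aiolos) are zinc finger factors of lymphocytes whose proteins are destroyed when thalidomide analogs bind cereblon, and MEF2C is a MADS box factor of the B lineage. Only RNA was measured here, so no value below is a protein level.

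The counted regions were the 3′ UTRs, each 1 exon block in hg38 that overlapped no other gene's counted 3′ UTR. They were chr6:407599-411443 for IRF4 and chr6:106107487-106109939 for PRDM1 on the plus strand, chr22:28794555-28795545 for XBP1 and chr11:111352255-111354260 for POU2AF1 on the minus strand, chr7:50400628-50405101 for IKZF1 on the plus strand, chr17:39757718-39765789 for IKZF3 and chr5:88717117-88722603 for MEF2C on the minus strand. Promoter sequence was at hand for 5 of the 7 genes. RefSeq (GRCh38.p14) lists 15 promoter windows for IRF4, PRDM1, XBP1, IKZF1 and MEF2C, each from 250 bases before to 50 bases after a start site. The matches below are in capitals and written on the strand of the gene. Letters for AP-1 and BATF proteins (TGANTCA) and octamer factors (ATGCAAAT or its reverse complement) are shown because these proteins are known to read them. The kappa B letters (GGGA and CC around any 4 bases) are a loose pattern that leaves 4 bases free, so a match need not be an NF-kB site. BATF proteins are DNA partners of IRF4, and octamer DNA is where POU2AF1 acts.

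PRDM1 AP-1 (chr6:106098889-106098915, plus strand): ttctacccagTGACTCAaagcactaaa

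MEF2C AP-1, first (chr5:88785559-88785585, minus strand): attattcctgTGACTCAttgtacctta

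MEF2C AP-1, second (chr5:88785532-88785558, minus strand): agagagcagcTGACTCAttttagttta

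MEF2C octamer (chr5:88824387-88824414, minus strand): cgtccatcctATTTGCATaacgagggac

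IRF4 kappa B (chr6:391761-391790, plus strand): gctcgatcttGGGACCCACCgctgccctca

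PRDM1 kappa B (chr6:106086216-106086245, plus strand): agcaatctggGGGAAAGCCCtgggctcggc

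XBP1 kappa B (chr22:28800784-28800813, minus strand): cgcttaagggGGGAAAATCCgtttgtggag

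The AP-1 letters stood in 2 of the 15 windows and in 7.71% of all 35116 human windows, searched on both strands. The octamer stood in 1 of the 15 and in 1.77% of all, and the kappa B letters in 3 of the 15 and in 25.6% of all. The CCAAT box (CCAAT) stood in 2 of the 15 windows, of XBP1 and MEF2C, and in 34.6% of all. The GC box (GGGCGG) stood in 5 of the 15, of IKZF1, IRF4, PRDM1 and XBP1, and in 45% of all. Letters for an ISRE (GAAA and GAAA around any 2 bases, in 3.57% of all windows), an ETS-IRF site (GGAA and GAAA around any 2 bases, in 2.82%), a MEF2 site (CTA and TAG around any 4 bases, in 2.73%), an E-box (CACGTG, in 7.26%) or an unfolded protein response element (TGACGTG, in 1.97%) were in none of the 15. The 3 genes with the kappa B letters, IRF4, PRDM1 and XBP1, also held the GC box, which for PRDM1 was in a different window. No motif was shared by all 5 genes. The searches were made separately, so that the letters of 2 motifs may overlap. A match is a description of letters, and which start site made the RNA counted here is not known.

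The labelled libraries held between 12440700 and 18729086 reads on genes, of which 4.71% to 8.62% were T>C reads, against 0.794% and 0.809% without 4sU. Levels are given in RPM, a gene's reads per 1000000 reads of the library after correction by its TMM factor (0.873 to 1.32). The median of all genes moved on this scale by 0.05, -0.27 and -0.69 (log2, dCBP-30 against DMSO, T>C reads) at 2, 6 and 24 h, so changes at the later times are read beside those values. Conversions per T>C read were lower under dCBP-30 at 24 h (1.43 to 1.51 against 2.46 to 2.51 under DMSO) and their part in the 24 h results was not tested. The cells carried the markers of their labelled type: 13 of 15 plasma cell markers were above 10 RPM under DMSO, with SDC1 at 1380 RPM and MZB1 at 1520 RPM, while CD27 and DERL3 were under 1 RPM. Of 16 genes of the B cell program 10 were above 1 RPM and 6 above 10 RPM, with ETS1 at 43.8 RPM and CD79B at 28.9 RPM, while CD22, MS4A1 and PAX5 had 1, 7 and 15 reads in the 9 DMSO libraries together. Of 11 markers of T cells, monocytes and red cells, HBB (8.17 RPM) and CD3E (4.57 RPM) alone exceeded 1 RPM, and CD3D, CD4 and LYZ had no read.

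Under DMSO the factors differed in how much of their RNA was new. Over the 9 DMSO libraries the labelled share was 74.1% ± 5.24 for PRDM1, 46.9% ± 5.34 for IRF4, 24.6% ± 4.04 for IKZF3, 21.5% ± 4.62 for IKZF1, 17.6% ± 3.55 for XBP1, 16.95% ± 3.52 for MEF2C and 5.03% ± 1.33 for POU2AF1 (SD, n = 9 each). Each factor had its highest mean at 24 h, so these SDs include a shift between time points. Mean shares at 2, 6 and 24 h were 70.6%, 70.9% and 80.8% for PRDM1 and 42.7%, 44.4% and 53.8% for IRF4. The median over 7690 genes was 9.13%, and PRDM1 was above 99.8% of them, IRF4 above 98.3% and POU2AF1 above 23.8%. PRDM1 exceeded IRF4 and IRF4 exceeded IKZF3 in 9 of 9 libraries with no overlap of their ranges, and MEF2C exceeded POU2AF1 likewise. Neighbours among the 4 factors in between had overlapping ranges. IKZF3 exceeded IKZF1 in 8 of 9 libraries by 3.07 ± 2.47 percentage points, IKZF1 exceeded XBP1 in 9 of 9 by 3.94 ± 1.89, and XBP1 exceeded MEF2C in 7 of 9 libraries, by 0.653 ± 2.02 percentage points. Reads of a gene with more T positions have more chances of a conversion. They held 30.6 T positions on average for IRF4, 30.5 for PRDM1 and 29.5 for XBP1, but 26.6 for MEF2C, 24.3 for POU2AF1, 21.5 for IKZF3 and 20.2 for IKZF1. The part of T content in the order of the shares was not tested. Without 4sU the share of each factor was between 0.322% and 0.936%.

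New RNA of all 7 factors was lower under dCBP-30 at each time point, with no library of one treatment reaching the range of the other. How many of all genes separate in this way was not counted. By the quasi-likelihood test of edgeR, adjusted after Benjamini-Hochberg, 7 of 7 were called lower (adjusted p under 0.05 and over 2-fold) at 2, 6 and 24 h, where 7.14%, 17.1% and 31.2% of the 10086 genes tested were called lower. The log2 fold changes ran from -1.92 to -3.72 at 2 h, with a median of -2.75 over the 7. At 6 h the median was -4.32 and at 24 h it was -3.40. Scaled by T>C reads in place of total reads, the share of genes called lower was 7.07%, 11.8% and 15.0% and all 7 factors were still called at each time. In bulk RNA fewer cells that express a gene and less RNA per cell cannot be told apart.

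**Figure D1:**
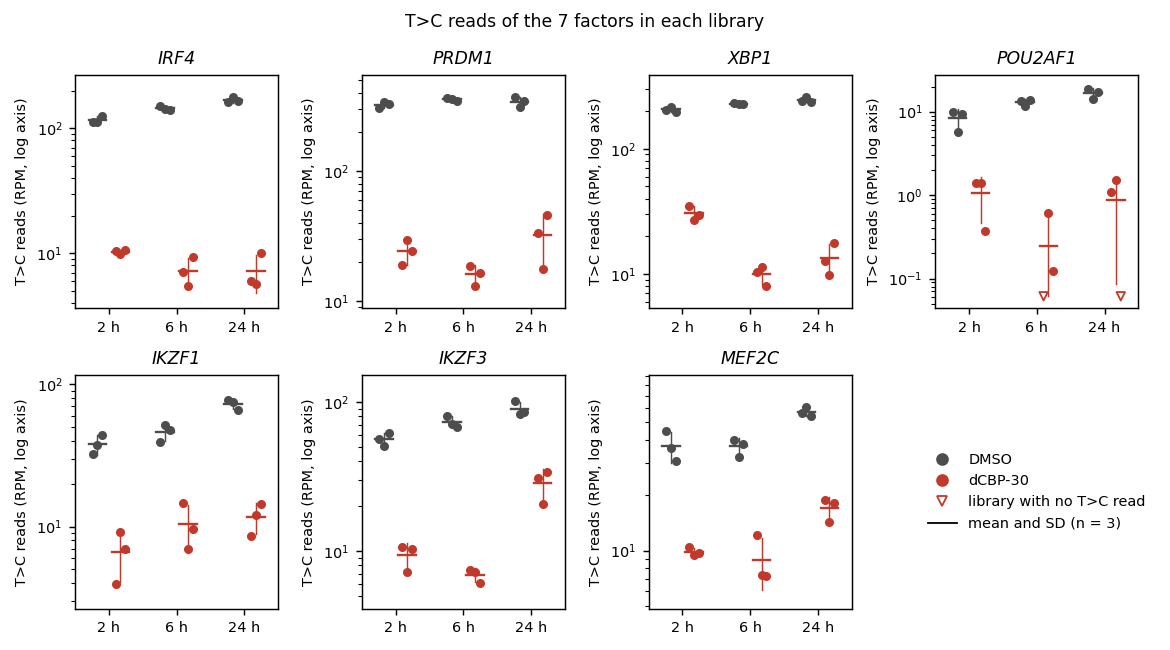
T>C level (RPM, log axis, each panel with its own scale) of each factor in every library, by time point and treatment, with lines for the mean and SD of 3 libraries (an SD that would reach below the lowest point of the axis ends there). All dCBP-30 libraries lie below all DMSO libraries of their time point, and open triangles mark 2 POU2AF1 libraries with no T>C read.

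IRF4, without which myeloma cells are known to die, had 113, 112 and 126 RPM of T>C reads in the DMSO libraries at 2 h, and 10.4, 9.84 and 10.6 under dCBP-30. By 24 h the DMSO libraries held 161, 179 and 166 RPM and the dCBP-30 libraries 6.02, 5.66 and 10.1. The IRF4 level with dCBP-30 was 8.82%, 5.03% and 4.31% of that with DMSO in that order of times. The fit gave log2 fold changes of -3.50, -4.32 and -4.53 (standard errors 0.181, 0.188 and 0.189, edgeR adjusted p between 1.22e-28 and 7.89e-24).

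PRDM1, the repressor that shuts off B cell genes, went from 306, 338 and 326 RPM to 19.0, 29.7 and 24.5 RPM at 2 h. At 6 h the PRDM1 level was 18.7, 13.2 and 16.4 RPM with dCBP-30 against 345 to 366 with DMSO. The PRDM1 libraries under dCBP-30 spread most at 24 h, with 33.6, 17.6 and 46.0 RPM against 312 to 369. The PRDM1 changes were -3.72, -4.47 and -3.40 on the log2 scale (standard errors 0.232, 0.241 and 0.228), and the level at 24 h was 9.49% of DMSO after 4.52% at 6 h.

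XBP1 lost less new RNA at 2 h than at the later times. Its T>C level went from 205, 217 and 196 RPM to 35.0, 27.1 and 29.5 RPM at 2 h, which is 14.8% of DMSO. At 6 h the dCBP-30 libraries held 10.4, 11.4 and 7.97 RPM against 227 to 231 RPM, or 4.33%, and at 24 h 12.8, 9.89 and 17.8 RPM against 238 to 260.5 RPM, or 5.47%. The log2 fold changes were -2.75, -4.53 and -4.19 (standard errors 0.160, 0.175 and 0.171).

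POU2AF1 had few T>C reads, and its changes rest on them. At 2 h there were 130, 80 and 124 T>C reads of POU2AF1 in the DMSO libraries and 16, 21 and 6 in the dCBP-30 libraries. The later counts were 188, 174 and 205 against 0, 11 and 2 after 6 h, and 287, 235 and 239 against 20, 28 and 0 after 24 h. At 2 h the labelled share under dCBP-30 was 0.638%, 0.541% and 0.176%, around the 0.322% and 0.610% of the 2 libraries without 4sU. By share alone, new POU2AF1 RNA was thus not separable from background at this depth. Conversions per T>C read were 1.44, 2.62 and 1.00 in these dCBP-30 libraries, against 1.00 in both libraries without 4sU. The fitted log2 fold changes of -3.01, -5.64 and -4.24 had standard errors of 0.638, 0.749 and 0.636 (edgeR adjusted p of 0.00254, 5.85e-06 and 1.66e-05). After background was subtracted the change at 2 h was -5.03, and leaving out 1 library at a time moved the value at 6 h between -7.56 and -5.08.

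IKZF1 and IKZF3, the 2 Ikaros family members, were both called lower at each time. IKZF1 had 32.3, 37.4 and 44.1 RPM of T>C reads under DMSO at 2 h and 3.97, 9.11 and 6.95 under dCBP-30, and its level stayed at 17.6%, 22.6% and 16.1% of DMSO at 2, 6 and 24 h. IKZF3 went from 56.1, 50.4 and 62.2 to 10.6, 7.26 and 10.3 RPM at 2 h, and from 81.0, 71.3 and 67.6 to 7.48, 7.16 and 6.13 RPM at 6 h. At 24 h the IKZF3 level was 30.9, 20.5 and 33.6 RPM under dCBP-30 against 101, 82.4 and 85.9 RPM, so that it stood at 16.7%, 9.45% and 31.5% of DMSO in turn. The log2 fold changes were -2.49, -2.15 and -2.64 for IKZF1 (standard errors 0.230, 0.221 and 0.223) and -2.59, -3.40 and -1.66 for IKZF3 (0.185, 0.191 and 0.174).

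MEF2C had the smallest T>C decrease of the 7 at 2 h, though its libraries overlapped those of IKZF1 in the within-library comparison at 2 and 6 h. Its T>C level was 44.9, 36.2 and 30.7 RPM under DMSO at 2 h and 10.4, 9.44 and 9.76 under dCBP-30. The level was 26.5%, 24.1% and 30.1% of DMSO at the 3 times, with log2 fold changes of -1.92, -2.05 and -1.73 (standard errors 0.196, 0.196 and 0.189). Among all genes, 5.15% had a lower log2 fold change than MEF2C at 2 h, against 1.38% for IRF4 and 1.17% for PRDM1. At 24 h, when much of the transcriptome was lower, 19.0% of genes lay below MEF2C and 20.5% below IKZF3, but 1.59% below IRF4 and 2.01% below XBP1.

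Whether the factors differed from one another was tested within libraries, as the log2 ratio of the T>C reads of 2 factors (0.5 added to each), in which library scaling cancels. Over the 3 time points 14 of the 21 pairs changed unequally (two-sided exact permutation test of the treatment labels within time points, smallest possible p 0.00025, Benjamini-Hochberg over 21 pairs, 9 libraries of each treatment). IRF4, PRDM1, XBP1 and POU2AF1 each fell more than IKZF1, IKZF3 and MEF2C, by a mean of 1.28 (XBP1 against IKZF3) to 3.14 (POU2AF1 against MEF2C) on the log2 scale. The last size rests on libraries with 0 to 28 T>C reads of POU2AF1, and the mean difference was -2.54 with 2 added to each count and -4.11 with background subtracted. At 2 h alone XBP1 and POU2AF1 overlapped with IKZF1 and IKZF3, with differences of -0.191 (standard error 0.484) and -0.165 (0.169) for XBP1 and -0.542 (0.810) and -0.516 (0.721) for POU2AF1. IRF4 fell more than MEF2C by 1.6, 2.25 and 2.84 at 2, 6 and 24 h (standard errors 0.207, 0.348 and 0.241; exact permutation test, adjusted p = 0.000656). In the mean of the 3 times IKZF1 and IKZF3 fell more than MEF2C by 0.57 and 0.654 (exact permutation test, adjusted p of 0.0199 and 0.0101). At 24 h alone IKZF3 overlapped with MEF2C, with a difference of 0.0508 (standard error 0.16). So did IKZF1 at 2 and 6 h, with differences of -0.674 (0.486) and -0.114 (0.248).

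**Figure D2:**
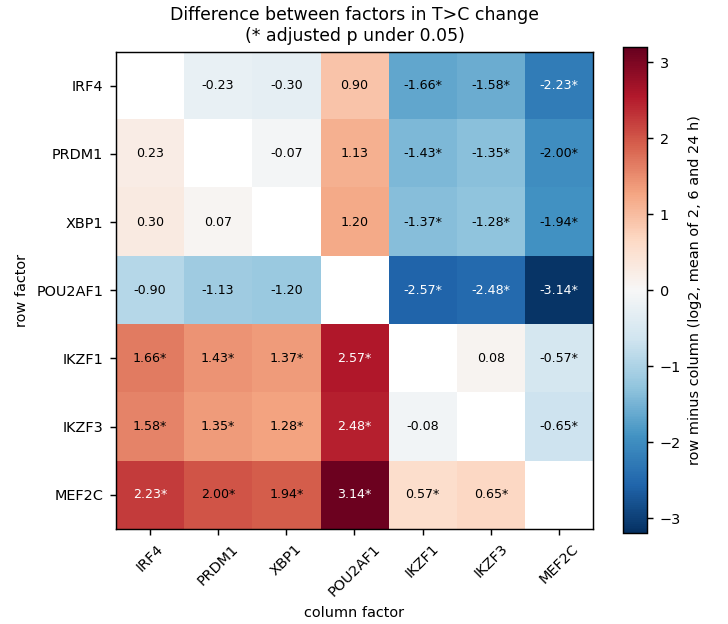
Mean over 2, 6 and 24 h of the difference between the row factor and the column factor in the T>C change under dCBP-30 (log2, blue where the row factor fell more), with an asterisk at an adjusted p under 0.05. The 12 cells that set IRF4, PRDM1, XBP1 and POU2AF1 against IKZF1, IKZF3 and MEF2C are blue with an asterisk, and no pair within the first 4 has one.

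No difference was called among IRF4, PRDM1, XBP1 and POU2AF1, where the 6 pairs had means between -0.297 and 1.2, or between IKZF1 and IKZF3, with a mean of 0.08 (exact permutation tests, adjusted p of 0.122 to 0.793). With background subtracted, PRDM1 (2.16, exact permutation test, adjusted p = 0.0495) and XBP1 (2.15, 0.0308) fell less than POU2AF1. Single times pointed in opposite directions for some of these pairs. The IRF4 change was lower than that of XBP1 by 0.737 (standard error 0.131) at 2 h with no overlap of libraries, while at 6 h the libraries overlapped (0.198 the other way, standard error 0.375). The change of IRF4 was also lower than that of PRDM1 at 24 h, by 1.08 (0.273). That of PRDM1 was lower than that of XBP1 by 0.988 (0.299) at 2 h and higher by 0.728 (0.212) at 24 h. That of IKZF3 was lower than that of IKZF1 by 1.2 (0.351) at 6 h and higher by 0.972 (0.319) at 24 h. With 3 libraries against 3, an exact test at 1 time point cannot go below p = 0.1, so these single times carry no test.

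Without the 24 h libraries, 9 of the 21 pairs passed. The pairs lost were XBP1 and POU2AF1 against IKZF1 and IKZF3, with adjusted p between 0.0525 and 0.0646, and IKZF1 against MEF2C, with 0.222 (exact permutation tests over 6 libraries of each treatment). The difference between IKZF1 and MEF2C was also lost without dCBP-30 replicate 1 or DMSO replicate 3 at 2 h (exact permutation test, adjusted p of 0.0506 and 0.057). Without dCBP-30 replicate 3 at 6 h, IRF4 against XBP1 passed (mean -0.412, exact permutation test, adjusted p = 0.00315).

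Total reads, which include RNA made before the degrader was added, separated the factors at 2 h. IRF4 went from 276, 253 and 292 RPM of total reads to 55.8, 67.8 and 69.3 RPM, and PRDM1 from 442, 461 and 470 to 56.2, 73.7 and 59.7 RPM. These 2 were the factors called lower at 2 h (log2 fold changes -2.09 and -2.85, standard errors 0.118 and 0.175, edgeR adjusted p of 2.69e-12 and 2.46e-11), where 1.25% of 12272 genes were called lower. XBP1 (-0.87), IKZF3 (-0.71), MEF2C (-0.50) and IKZF1 (-0.43) passed the adjusted p (2.26e-05 to 0.0398, edgeR) but not the 2-fold limit. That made 6 of 7 lower at any size, where 2.67% of genes were. POU2AF1 had 213, 226 and 275 RPM under DMSO and 216, 256 and 214 under dCBP-30, and its fitted change was -0.06 on the log2 scale (standard error 0.163, edgeR adjusted p = 0.907), while its new RNA was already called lower.

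**Figure D3:**
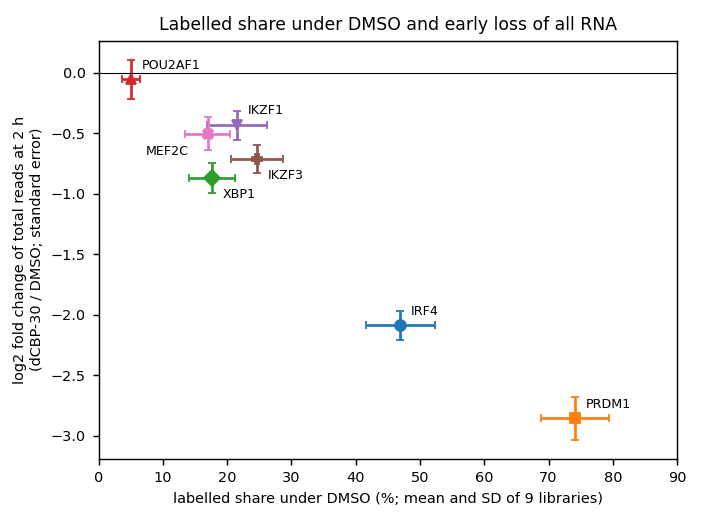
Labelled share under DMSO (mean and SD of 9 libraries) against the log2 fold change of total reads at 2 h (with standard error) for the 7 factors. PRDM1 and IRF4, with shares of 74.1% and 46.9%, had the largest decreases of the 7, POU2AF1, with 5.03%, had a change of -0.06, and the 4 others lay between.

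The order of the 7 total-read changes at 2 h followed the labelled share at its ends, from PRDM1 and IRF4 to POU2AF1, as the plot of share against early change shows. Among the 4 factors between 16.95% and 24.6% it did not: XBP1, with a share of 17.6%, had a larger decrease (-0.87) than IKZF1, with 21.5% (-0.43). Both axes use the DMSO libraries at 2 h, and 7 factors are too few for more than a description. Reads without a conversion, mostly older RNA, give the same picture. At 2 h their level was 28.9% of DMSO for PRDM1, 34.4% for IRF4, 61.6% for XBP1, 72.2% for IKZF3, 77.6% for MEF2C, 85.8% for IKZF1 and 99.1% for POU2AF1, with overlap of libraries for the last 3.

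By 6 h all 7 factors were called lower in total reads (8.67% of genes were), with log2 fold changes from -1.79 for IKZF1 to -4.25 for PRDM1. XBP1 had reached 90.7, 109 and 92.4 RPM against 1473, 1415 and 1460 under DMSO, a log2 fold change of -3.90 (standard error 0.135). POU2AF1 stood at 28.1, 43.0 and 53.3 RPM against 247, 228 and 224, or -2.49 (0.174). At 24 h 6 of 7 were called (16.1% of genes were). The largest decreases were those of XBP1 (-3.93), IRF4 (-3.78) and POU2AF1 (-3.51), whose dCBP-30 libraries held 27.4, 26.7 and 18.8 RPM against 255 to 293. IKZF3 stood at 190, 144 and 171 RPM against 327, 308 and 289, a log2 fold change of -0.87 (standard error 0.116, edgeR adjusted p = 5.81e-07) within the 2-fold limit. IKZF1 (-1.35) and MEF2C (-1.31) were called at 24 h, but without TMM factors their changes were -0.83 and -0.79, also within 2-fold, and 8.62% of genes were called lower. As within-library ratios of total reads, 13 of the 21 pairs of factors differed in their change over the 3 times. In the mean of these times POU2AF1 fell less than IRF4 (mean difference -1.13, adjusted p = 0.00239), XBP1 (-0.87, 0.00233) and PRDM1 (-1.27, 0.0311), each by an exact permutation test. At 24 h alone the differences were -0.266 (standard error 0.297) for IRF4 and -0.435 (0.365) for XBP1. For PRDM1 the difference at 24 h went the other way, at 0.732 (0.438). No difference in total reads was called for POU2AF1 against IKZF3 or MEF2C (exact permutation test, adjusted p of 0.177 and 0.081). Nor was one called for IKZF1 or IKZF3 against MEF2C (0.313 and 0.376). All of these pairs were called in T>C reads.

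**Figure D4:**
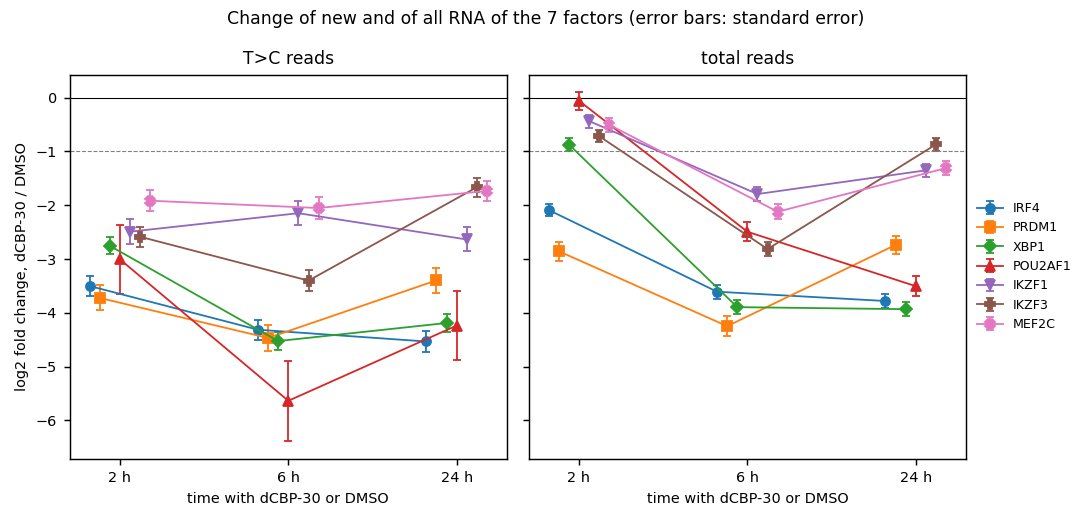
Log2 fold change (dCBP-30 over DMSO, with standard error) of T>C reads and of total reads for the 7 factors at 2, 6 and 24 h, with a dashed line at 2-fold lower. IRF4, XBP1 and POU2AF1 stay low in total reads at 24 h, while IKZF3 returns from -2.81 at 6 h to -0.87 and PRDM1 from -4.25 to -2.74.

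The time courses were compared directly, as the change at one time minus the change at another. Among the T>C results 8 of 21 such differences passed (edgeR, adjusted p under 0.05). From 2 to 6 h the decrease deepened for XBP1 (-1.77, standard error 0.218, edgeR adjusted p = 1.7e-08), IKZF3 (-0.82, 0.253, 0.0312) and IRF4 (-0.81, 0.240, 0.0214), where 7.35% of genes moved down, 0.684% moved up and the median gene moved by -0.32. The change at 24 h was lower than that at 2 h for XBP1 (-1.44, 0.216) and IRF4 (-1.03, 0.239), a direction that 23% of genes shared, with a median of -0.72. It was less deep for IKZF3 (0.92, 0.246), which held for 3.02% of genes. From 6 to 24 h the change became less deep for IKZF3 (1.74, 0.248, edgeR adjusted p = 3e-07) and PRDM1 (1.07, 0.299, 0.0176), as for 2.92% of genes, while 9.13% deepened and the median was -0.37. Every time point enters 2 of these contrasts, which are therefore not independent of each other.

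Several of these calls rested on the scaling or on single libraries. The shares of genes depended on the scaling too. With T>C reads as the scale, 3.63% of genes moved down and 1.07% up from 2 to 6 h. From 2 to 24 h 9.97% moved down and 6.92% up, and from 6 to 24 h 5.36% and 5.25%. Scaled by T>C reads or by total reads without TMM factors, the 6 h differences of IRF4 (edgeR adjusted p of 0.207 and 0.16) and IKZF3 (0.28 and 0.187) and the 24 h difference of IRF4 (0.226 and 0.066) were lost. The IRF4 difference at 6 h was also lost without replicate 3 of dCBP-30 or 2 of DMSO at 2 h, or replicate 2 of dCBP-30 or 1 of DMSO at 6 h (edgeR adjusted p of 0.0529 to 0.121). That of IKZF3 was lost without replicate 1 or 3 of dCBP-30 or 1 or 2 of DMSO at 2 h, or replicate 3 of dCBP-30 or 1 of DMSO at 6 h (0.0537 to 0.102). The PRDM1 difference was lost without dCBP-30 replicate 3 (adjusted p = 0.0788, edgeR) or DMSO replicate 1 (0.0505) at 6 h.

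Total reads were put to the same test after the T>C result was known, and 16 of 21 differences passed. From 2 to 6 h all 7 factors deepened (10.7% of genes did), with the largest differences for XBP1 (-3.02, standard error 0.174) and POU2AF1 (-2.44, 0.236). At 24 h the change was lower than at 2 h for IRF4, XBP1, POU2AF1, IKZF1 and MEF2C (22.8% of genes), of which the MEF2C difference was lost without TMM factors (-0.39, edgeR adjusted p = 0.087). From 6 to 24 h the factors parted. POU2AF1 deepened further (-1.01, 0.237, edgeR adjusted p = 0.00181), which 16.6% of genes did. The change became less deep for IKZF3 (1.95, 0.166), PRDM1 (1.51, 0.235) and MEF2C (0.81, 0.189), as for 15.5% of genes, and IRF4 (-0.17, standard error 0.165) and XBP1 (-0.04, 0.171) passed no test.

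Averaged over the 3 time points, the labelled share of all 7 factors was lower under dCBP-30 than under DMSO. At single times the median share difference over 9117 genes was 0.10, -1.41 and -3.93 percentage points at 2, 6 and 24 h. At 24 h XBP1 (-3.84) and POU2AF1 (-2.76) lay no lower than that median, and the other 5 factors, from -5.32 to -31.1, lay below it. The mean difference over the 3 times was -24.2 percentage points for PRDM1, -22.1 for IRF4, -11.7 for IKZF3, -11.3 for IKZF1, -6.73 for XBP1, -4.49 for MEF2C and -3.61 for POU2AF1. Two-sided exact permutation tests within time points (9 libraries of each treatment, smallest possible p 0.00025) gave adjusted p over the 7 factors between 0.000583 and 0.00575. At 2 h no library overlapped for any of the 7, where 13.4% of 9117 genes with at least 20 reads separated downwards. XBP1 held 14.4% to 15.0% under DMSO and 3.59% to 4.52% under dCBP-30, and IKZF1 16.1% to 18.9% and 2.90% to 4.91%.

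**Figure D5:**
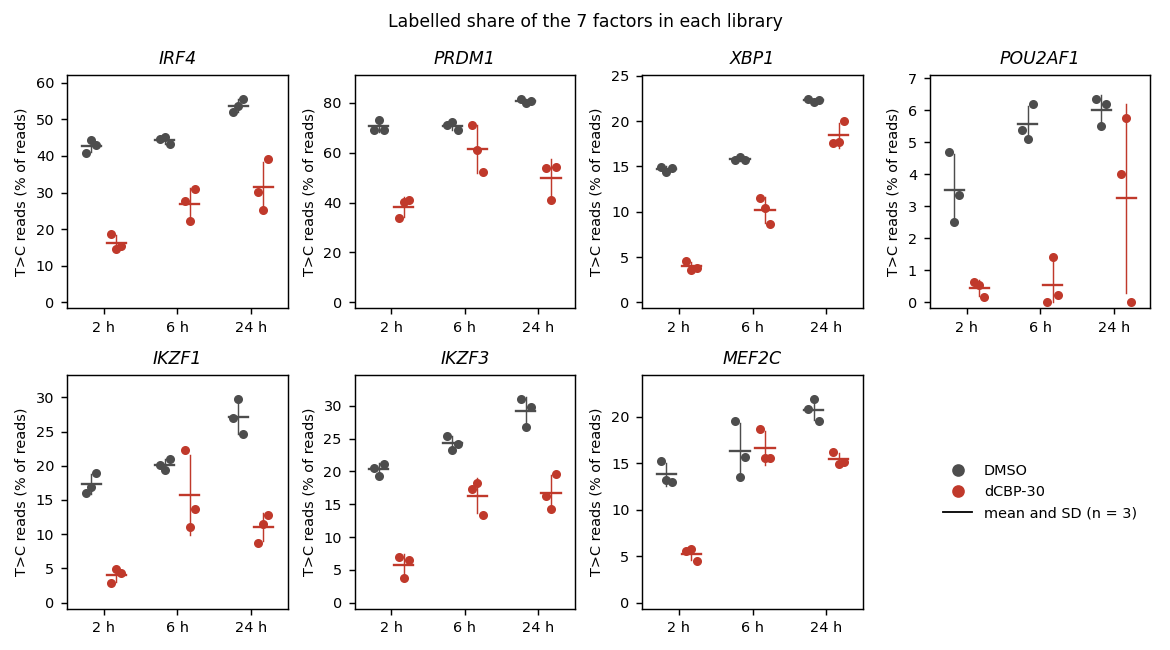
Labelled share (T>C reads as a percentage of a gene's reads) of each factor in every library, by time point and treatment, with lines for the mean and SD of 3 libraries (an SD below 0 ends there). At 2 h all dCBP-30 libraries lie below the DMSO libraries for each factor, and at 6 h PRDM1, IKZF1 and MEF2C overlap.

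At 6 h 4 of the 7 factors still separated (22.4% of genes did), and PRDM1, IKZF1 and MEF2C overlapped. The MEF2C share was then 18.7%, 15.6% and 15.6% under dCBP-30 and 19.6%, 13.6% and 15.7% under DMSO, a difference of 0.371 points (standard error 2.05), although its T>C reads and its total reads were both lower. New and older RNA had fallen to like parts, 24.1% and 22.8% of DMSO. At 24 h 6 of 7 separated (46.1% of genes did), POU2AF1 being the exception with 3.99%, 5.75% and 0% against 5.50% to 6.35%. Without the 24 h libraries the MEF2C difference was -4.075 points and no longer passed (exact permutation test, adjusted p = 0.055, 6 libraries of each treatment).

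Under DMSO alone, at 6 h against 2 h the T>C changes of the factors lay between -0.01 and 0.64, with edgeR adjusted p of 0.892 to 0.994. At 24 h against 2 h no factor was called lower or higher past 2-fold (2.53% of genes were called higher). IKZF1 (0.94), IKZF3 (0.68), MEF2C (0.61) and IRF4 (0.53) had adjusted p between 0.00632 and 0.0370 (edgeR), and POU2AF1 had 1.00 (standard error 0.530, edgeR adjusted p = 0.255), while the median gene moved by 0.49 in the same comparison and 5.51% of genes were higher at any size. Scaled by T>C reads the 4 changes were 0.48, 0.22, 0.16 and 0.08, with edgeR adjusted p between 0.533 and 0.926. For IKZF1 the value was 1.06 without DMSO replicate 3 at 2 h and 1.00 without DMSO replicate 3 at 24 h, both past 2-fold.

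Relatives and partners of the factors were taken as a list of 22 genes, of which 19 were tested in T>C reads. At 2, 6 and 24 h 8, 10 and 7 of them were called lower, beside 7.14%, 17.1% and 31.2% of all genes, so that the count at 24 h was near the background. The list had medians of -1.42, -1.29 and -0.97 against 0.05, -0.27 and -0.69 over all genes. IRF2, a repressor of the IRF family, had T>C changes of -3.93, -3.54 and -1.41, and the oncogenes MYC and MAF, a known IRF4 target in myeloma and a bZIP factor, had -6.55 and -5.20 at 6 h. TCF3, an E protein, had -0.93 at 2 h, within 2-fold, and then -2.10 and -2.37. In this list 1 of the 19 was called higher in T>C reads, at 6 h (2.36% of genes were). It was IKZF4 (1.115, standard error 0.387, edgeR adjusted p = 0.0265), an Ikaros relative named here after its value was seen.

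Of 9 tested genes of the B cell program, which PRDM1 is known to repress, 3, 4 and 3 were called lower at 2, 6 and 24 h (7.14%, 17.1% and 31.2% of all genes) and 1 higher, at 6 h (2.36% of all genes). The 3 at 24 h were near the background share. CIITA, the master activator of MHC class II genes, had T>C changes of -2.07, -5.11 and -4.33, ETS1 -2.49, -2.64 and -2.98, and ID3, an inhibitor of E proteins, -1.77, -1.46 and 0.80, the last within the 2-fold limit. The gene called higher was BCL6, the germinal center repressor, named after its value was seen, with 8, 14 and 11 T>C reads under dCBP-30 and 0, 0 and 0 under DMSO at 6 h (edgeR adjusted p = 0.0121), but 4 to 7 under DMSO at 2 h. At 24 h BCL6 had 6, 12 and 12 T>C reads under DMSO and 0, 6 and 7 under dCBP-30. CD79B, the gene with most reads after ETS1 among those tested, had 1.41, -0.44 and 0.57 and passed no test.

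Most plasma cell surface and secretory markers were called lower in T>C reads. Of 13 tested, 11, 12 and 13 were called lower at 2, 6 and 24 h (7.14%, 17.1% and 31.2% of all genes were; list medians -2.65, -3.51 and -2.82). In total reads, of 14 tested, 0, 10 and 13 were called lower at 2, 6 and 24 h by edgeR (1.25%, 8.67% and 16.1% of all genes were). At 2 h DESeq2 called 0 as well, and 9 of the 14, all lower, had an unadjusted p under 0.05 in edgeR. The medians were -0.35, -1.50 and -2.78 at the 3 times. TNFRSF17 (BCMA) had T>C changes of -3.59, -6.71 and -4.65, TNFRSF13B (TACI) -3.75, -4.87 and -4.61, and SLAMF7 -3.29, -3.51 and -1.81. The kinase gene PIM2 had -3.28, -4.34 and -2.02, and TXNDC5, a protein disulfide isomerase, -2.65, -4.29 and -4.78.

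Secretory pathway genes that XBP1 is known to activate were called later. Of 28 tested, 2, 13 and 22 were called lower in T>C reads at 2, 6 and 24 h (medians 0.03, -0.81 and -1.36) and 1, 2 and 12 in total reads. Beside the shares of all genes (7.14%, 17.1% and 31.2% in T>C reads and 1.25%, 8.67% and 16.1% in total reads), the 2 at 2 h in T>C reads and the 2 at 6 h in total reads were at the background. The 2 called at 2 h, HERPUD1 and EDEM1, act in the degradation of misfolded proteins and had changes of -2.43 and -2.50. SSR3, of the translocon, had -0.32, -1.33 and -1.52, and PDIA6, a disulfide isomerase, had -0.34, -0.80 and -1.50, of which the 24 h value was called. Of 11 markers of other blood cells 1, HBB, could be tested in T>C reads, and it passed no test (0, 0 and 0 T>C reads under dCBP-30 and 10, 3 and 13 under DMSO at 2 h, edgeR adjusted p = 0.0524). In total reads HBB was called lower at 6 h (-2.99, edgeR adjusted p = 2.59e-07) and 24 h (-2.52, 8.33e-07), and CD3E, named after its value was seen, was called higher at 24 h (1.29, 0.00177). The summed total-read level of those markers was 10.9 to 12.5 RPM under DMSO and 9.11 to 13.2 under dCBP-30 at 2 h, 13.2 to 17.6 and 4.72 to 6.74 at 6 h, and 12.1 to 16.5 and 13.9 to 19.0 at 24 h. The part of these few reads in the results was not tested.

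The genes whose T>C profile over the 18 labelled libraries was most like that of each factor were found among 7560 genes, by Pearson's r of log2(T>C RPM + 0.5). The treatment and time groups are shared by all genes, so r is high for many and is a description. For IRF4 they were SLC1A4 (0.991) and BARX2 (0.986), for PRDM1 SDC1 (0.994) and KCNA3 (0.985), and for XBP1 TXNDC5 (0.987) and BLOC1S5-TXNDC5 (0.987), a readthrough gene that may share reads with TXNDC5. For POU2AF1 they were SH2B2 and TNFRSF13B (both 0.961), for IKZF1 LMO4 (0.974) and FEM1B (0.966), for IKZF3 PIM2 and TPM4 (both 0.988), and for MEF2C SERTAD2 (0.980) and CPEB4 (0.978). Among the factors themselves r was highest between IRF4 and PRDM1 (0.981) and IRF4 and XBP1 (0.980), and lowest between IKZF1 and POU2AF1 (0.859).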

How the data were processed

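Per the study's methods, the authors trimmed 3′-end reads with TrimGalore, mapped and counted them with Slamdunk on 3′ UTRs of hg38 and collapsed them per transcript. The deposited values are raw, unnormalized counts for each library and transcript, namely of all its reads, of those with a T>C conversion, and of converted and covered T positions. The methods also state that labelled Drosophila RNA was added as a spike-in before alkylation. Whether it entered a normalization is not given in the sources used here. Of 97466 transcripts, 91.4% matched GENCODE release 44 by identifier, which gave 19617 genes.

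T>C counts and total counts were tested with edgeR 4.0.16 (quasi-likelihood, robust, filterByExpr with a minimum count of 10, R 4.3.3) over the 18 labelled libraries, with library sizes and TMM factors from total reads, and an alternative used DESeq2 1.42.0. Shares and pairs of factors were tested by exact permutation (Python 3.11.15). The edgeR test was tried on simulated counts first. Replicates of a group were not copies (chi-square per degree of freedom of 8.54 to 50.1). The members and lists were chosen with earlier results of these data known. The genes named by rule are the 7 factors, from each list up to 3 with the largest called T>C change at 2 h and the 2 with most reads, and 2 genes most like each factor. Outside this rule are markers named for their level under DMSO, and IKZF4, BCL6 and CD3E, named after their values were seen.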

Additional observations from a re-analysis of the deposited data

Results flagged for a closer look

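The differences below are between the dCBP-30 changes at 2 time points, each tested as an interaction (edgeR, adjusted p under 0.05). On the log2 scale, the T>C change at 6 h minus that at 2 h was -0.81 for IRF4, -1.77 for XBP1 and -0.82 for IKZF3. At 24 h minus 2 h it was -1.03 for IRF4, -1.44 for XBP1 and 0.92 for IKZF3. At 24 h minus 6 h it was 1.07 for PRDM1 and 1.74 for IKZF3.

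For total reads the difference at 6 h minus 2 h was -1.52 for IRF4, -1.39 for PRDM1, -3.02 for XBP1, -2.44 for POU2AF1, -1.36 for IKZF1, -2.10 for IKZF3 and -1.62 for MEF2C. At 24 h minus 2 h it was -1.69 for IRF4, -3.06 for XBP1, -3.45 for POU2AF1, -0.92 for IKZF1 and -0.81 for MEF2C. At 24 h minus 6 h it was 1.51 for PRDM1, -1.01 for POU2AF1, 1.95 for IKZF3 and 0.81 for MEF2C.

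Conversions per T>C read were lower in the dCBP-30 libraries at 24 h (1.43 to 1.51) than at 2 h (2.13 to 2.23) and 6 h (2.22 to 2.27). In the DMSO libraries they were higher at 24 h (2.46 to 2.51) than at 2 h (2.17 to 2.22) and 6 h (2.12 to 2.20). The part of both shifts in the 24 h differences of T>C reads was not tested.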

How the results depend on the processing

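The log2 fold change of every factor in T>C reads at each time kept its direction and its call under each alternative run (own T>C reads as library size, no TMM factors, no filter, DESeq2, summed transcripts, subtracted background, 2 and 6 h alone, each library left out), and no call on the 7 factors reversed. The T>C change of the median gene at 24 h was -0.69, but -0.04 scaled by T>C reads and -0.16 without TMM factors, with 3148, 1513 and 1763 genes called lower and 219, 759 and 602 higher. In total reads without TMM factors 1061 genes were called lower and 3689 higher at 24 h (1972 and 1841 with them), and 731 and 1765 at 6 h (1064 and 917). Scaled by T>C reads, differences of the T>C change lost were -0.52 (IRF4, 6 h minus 2 h), -0.51 (IKZF3, 6 h minus 2 h) and -0.40 (IRF4, 24 h minus 2 h), and those gained were 0.95 (PRDM1) and 0.82 (MEF2C) for 24 h minus 2 h and 0.65 (XBP1) for 24 h minus 6 h. Without TMM factors the same 3 were lost (-0.60, -0.60 and -0.61), the total-read changes of IKZF1 and MEF2C at 24 h were -0.83 and -0.79, and the total-read differences were -0.39 for MEF2C (24 h minus 2 h, lost) and 0.64 for IKZF1 (24 h minus 6 h, gained). The cause was not tested. Alternatives added after the data were seen were the 2 and 6 h libraries alone, which left the MEF2C share at -4.075 points and 9 of 21 pairs, with fewer libraries, and leaving out libraries in the time comparisons. With background subtracted, XBP1 and PRDM1 differed from POU2AF1 (2.15 and 2.16).

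With 1 library left out at a time, T>C differences at 6 h minus 2 h ran from -1.03 to -0.64 for IRF4, -0.89 to -0.58 for PRDM1 (passing without dCBP-30 replicate 2 or 3 at 24 h), -4.55 to -2.07 for POU2AF1 (passing without dCBP-30 replicate 2 at 6 h or 3 at 24 h) and -0.97 to -0.72 for IKZF3. For 24 h minus 2 h PRDM1 ran from -0.014 to 0.62 (passing without dCBP-30 replicate 2 at 24 h). For 24 h minus 6 h PRDM1 ran from 0.73 to 1.37 and POU2AF1 from 0.72 to 3.32 (passing without dCBP-30 replicate 3 at 24 h). IKZF1 ran from 0.83 to 1.06 under DMSO (24 h against 2 h) and from 0.32 to 0.55 in total reads (24 h minus 6 h), where it passed in 5 of 18 fits.

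Replicate numbers did not pair the samples: deviations of same-numbered libraries correlated between -0.0509 and 0.016. With the number as a replicate block 7, 7 and 7 factors in T>C reads and 14 of 21 pairs still passed, and 702, 1699 and 3122 genes were called lower in T>C reads at 2, 6 and 24 h (720, 1720 and 3148 without it). Depth limits POU2AF1, with 0 to 28 T>C reads per dCBP-30 library.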
